A study of Mus musculus with 18 samples.

Results

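Loss of both copies of Ddx41 was examined in a mouse hematopoietic progenitor line whose 2 Ddx41 alleles are flanked by loxP sites (genotype flox/flox, called FF). The comparison sets 3 FF libraries treated with 4-hydroxytamoxifen (4OHT) against 3 FF libraries treated with ethanol, 6 of the 18 libraries of the series, chosen by their genotype and treatment labels. All groups are lineage-negative bone marrow cells immortalized with the leukemia fusion MLL-AF9 from a retrovirus, grown with IL-3, SCF and IL-6, and they express a Cre recombinase fused to the oestrogen receptor (CreERT) from the Rosa locus, which 4OHT activates. Treatment lasted 48 h at 1 µM 4OHT, and ethanol at the matching dilution served as control. Wild-type (WT) cells and cells with 1 floxed allele (Het), with 3 libraries per treatment each, are used here only for values set beside those of FF. The labels do not say how many lines or cultures stand behind a genotype, so a p-value here reflects the spread among these libraries alone, and that spread may be technical.

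Ddx41 is a DEAD-box RNA helicase that associates with the spliceosome and has also been studied as a sensor of cytosolic nucleic acids. Inherited and acquired DDX41 mutations are known in human myeloid neoplasms. In hematopoietic progenitors, removal of both alleles is known to be lethal, and per the series' design text the time point precedes the death of the cells.

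The 6 FF libraries held 24730213 to 30879935 counts each, and values are given as TMM-scaled CPM (counts relative to library size), so that 1 count corresponds to 0.0325 to 0.0416 CPM. The library labelled FF ethanol C did not lie with its line. On an axis through the mean of the WT libraries (0) and the mean of the FF libraries (1), drawn without it and without the library labelled WT 4OHT C, it lay at 0.029, and it held 2274 counts of the Y-linked gene Eif2s3y, of which the other 5 FF libraries had 0. The library labelled WT 4OHT C lay at 0.867 on that axis and had 0 Eif2s3y counts. The main counts of calls and the genes shown library by library are therefore given with all libraries and without FF ethanol C. A gene named as having risen or fallen was called in both fits unless stated. Counts and shares of genes that rose or fell are those with all libraries unless stated. Rn45s, the ribosomal RNA precursor, made up 0.381 to 0.626% of the counts in the ethanol libraries and 0.600, 1.823 and 4.000% in FF 4OHT A, B and C. The part of ribosomal RNA content in the results that follow was not tested. The progenitor markers Ptprc (CD45), Kit and Spi1 (PU.1) stood at 320 to 440, 89.0 to 97.6 and 207 to 355 CPM over the 6 libraries, whereas Cd34 stood at 0 to 0.797 CPM. Of the 17 identity markers tested, 11 lay below a log2 fold change of 0 and 6 above. Their median was -0.26, against -0.02 over all tested genes. Their summed level was 9810 to 13670 CPM in ethanol and 8238 to 9108 CPM in 4OHT. The granule protein genes Elane, Prtn3 and Mpo held a large part of that sum. Elane stood at 2989 to 4488 CPM in ethanol and 2091 to 2239 CPM in 4OHT. The ranges were 1953 to 2748 and 1764 to 2071 CPM for Prtn3, and 600.5 to 2181 and 204.6 to 548.4 CPM for Mpo. The sum therefore does not describe the markers at large. With all libraries, where 5.16% of tested genes rose and 8.29% fell, 1 of the 17 rose and 2 fell. Without FF ethanol C, where these shares were 3.59% and 6.46%, 1 rose and none fell. The falls were Myb, a progenitor transcription factor (log2 -0.33, edgeR adjusted p = 0.0453, and 0.138 without FF ethanol C), and Mpo, myeloperoxidase (log2 -2.02, adjusted p = 0.0346, and 0.116 without FF ethanol C).

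Ddx41 itself was examined first. It lies on chromosome 13 (GRCm38, 55530410 to 55536658, minus strand). Its level was 112, 82.0 and 73.7 CPM in FF ethanol A, B and C, and 14.6, 16.5 and 17.7 CPM in FF 4OHT A, B and C. No 4OHT library came near the lowest ethanol library. The log2 fold change was -2.45 ± 0.17 (SE, edgeR adjusted p = 8.09e-07) with all libraries and -2.57 (edgeR adjusted p = 9.7e-07) without FF ethanol C. Counts per gene do not resolve exons, so the RNA that remained cannot be assigned to undeleted alleles or to transcripts of the deleted allele. CPM values also cannot tell fewer cells of a kind from less RNA per cell.

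The response spread over many genes, with more falls than rises and larger rises than falls. Of 12859 genes tested, 663 rose (5.16%) and 1066 fell (8.29%) at an edgeR adjusted p of 0.05, 13.4% in all. Without FF ethanol C, 462 rose (3.59%) and 831 fell (6.46%), 10.1% in all. Called in both fits were 386 rises (3%) and 765 falls (5.95%), 8.95% in all. These are 83.5% of the rises and 92.1% of the falls called without FF ethanol C. With the library labelled WT 4OHT C, which enters the shared estimate of spread, also left out, 579 rose and 979 fell. With no test, the 3 4OHT libraries all lay above the 3 ethanol libraries for 18.7% of tested genes and all below for 21.5%, 40.2% in all, so that groups without overlap are common in this comparison. Of the 277 rises and 301 falls called only with all libraries, none changed sign without FF ethanol C, and 4 falls shrank to under 0.5 of their log2 size. The single library with the greatest weight was FF 4OHT C, without which 247 genes rose and 455 fell. Without FF 4OHT B the counts were 347 and 625, and without FF ethanol A and B 400 and 413 rises and 781 and 854 falls.

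**Figure D1:**
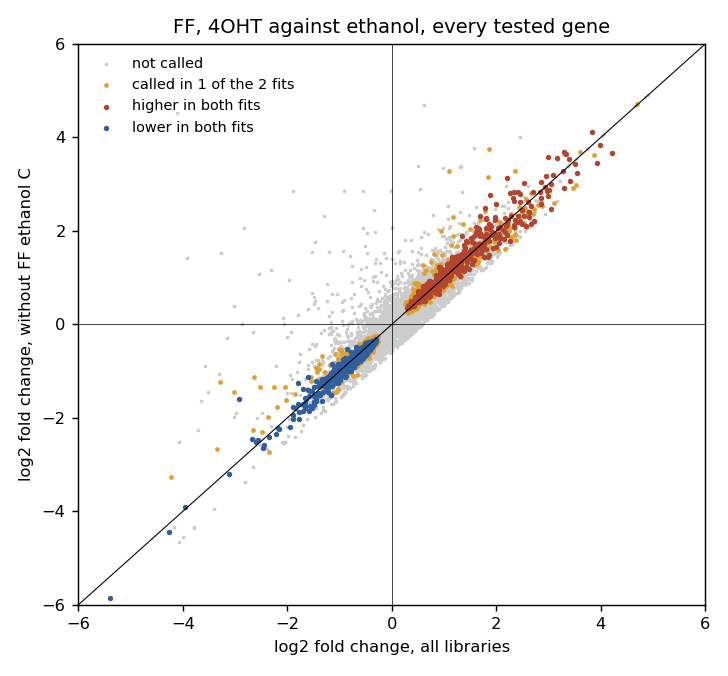
Log2 fold change of every tested gene in FF cells, 4OHT against ethanol, with all libraries (x axis) and without the library labelled FF ethanol C (y axis), with the line of equality; 12846 genes are drawn and 13 lie outside the axes. The 386 rises (red) and 765 falls (blue) called in both fits lie along the line, and the genes far from it are mostly grey (not called) or yellow (called in 1 fit).

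Most called genes changed by less than 2-fold. With all libraries the median log2 fold change was 1.05 over the rises and -0.66 over the falls, against -0.02 over all tested genes. Among falls, 634 lay between 0.5 and 1 in absolute log2 size, 250 under 0.5, 150 between 1 and 2 and 32 over 2. Among rises, 251 lay between 0.5 and 1, 70 under 0.5, 217 between 1 and 2 and 125 over 2. As a share of all counts of tested genes other than Rn45s, the genes that rose in both fits went from 1.64, 1.84 and 1.91% in FF ethanol A, B and C to 2.98, 3.58 and 4.12% in FF 4OHT A, B and C. The genes that fell in both fits went from 9.26, 8.76 and 8.39% to 6.01, 6.04 and 5.51%. These shares follow from how the genes were chosen and describe the size of the response in RNA terms.

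**Figure D2:**
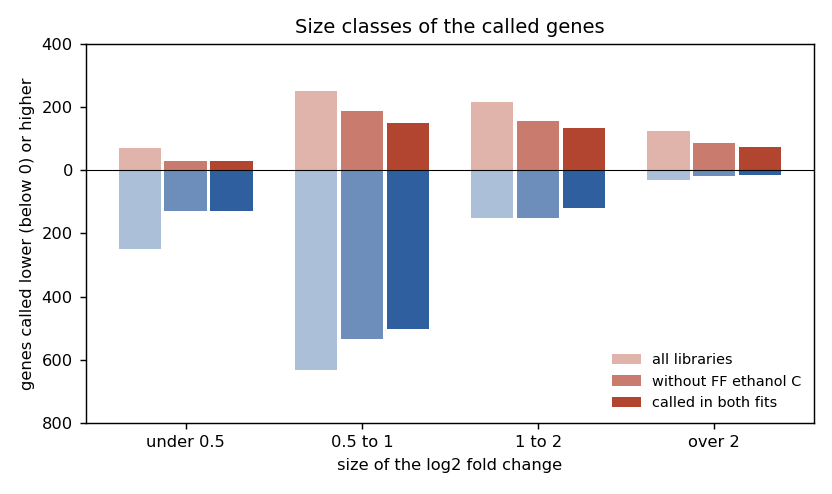
Number of genes called higher (bars up, red) and lower (bars down, blue) by absolute log2 fold change, for all libraries, without FF ethanol C and in both fits. Falls peak between 0.5 and 1 (634, 534 and 502 genes) and are few over 2 (32, 17 and 14), where rises number 125, 87 and 73.

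The share of genes called lower increased with the number of exons. Exons were counted in the annotated transcript with the most of them (GENCODE M21), for the 11651 tested protein-coding genes that matched a single annotated gene. Of these, 2.84% with 1 exon, 4.38% with 2, 4.76% with 3 to 5, 8.25% with 6 to 10, 10.5% with 11 to 20 and 13.9% with over 20 exons fell. The share that rose was 4.74, 6.45, 3.85, 5.70, 5.02 and 2.68% in the same order, so that genes with over 20 exons had the highest share of falls and the lowest of rises. The median log2 fold change went from 0.16 for 1 exon through 0.04 for 3 to 5 exons to -0.14 for over 20. Without FF ethanol C the falls were 3.55% for 3 to 5 exons and 11.6% for over 20. Without FF 4OHT C they were 1.99% and 5.54%.

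Among genes of like level or like transcript length, the share of falls increased from 3 to 5 exons upward, and the genes with 1 or 2 exons did not follow that order. Among genes with a mean of 10 to 100 CPM, 6.45% with 1 exon, 4.15% with 2, 4.91% with 3 to 5, 10.1% with 6 to 10, 13% with 11 to 20 and 16.5% with over 20 exons fell. Among genes whose longest transcript measures 3 to 5 kb, the shares in the same order were 2.22, 7.96, 3.43, 8.65, 11 and 20.5%, the first of them from 45 genes. Transcript length alone gave no such order, since 10.3% of genes with transcripts of 3 to 5 kb and 6.07% of those over 8 kb fell. The share of falls also increased with transcript GC content, from 4.76% at 31.0 to 43.9% GC to 10.6% at 55.6 to 72.8% GC. From the lowest to the highest GC class, the share of rises was 3.26, 5.06, 5.41, 5.5 and 4.37%. The median log2 fold change moved little, at -0.03, -0.03, -0.01, -0.02 and -0.07.

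As the median deviation of log2(CPM + 0.5) from each gene's mean over the 6 libraries, genes with over 20 exons stood at 0.073, 0.054 and 0.055 in FF ethanol A, B and C. They stood at -0.045, -0.055 and -0.092 in FF 4OHT A, B and C, below every ethanol library. Genes with 1 exon stood at -0.077, -0.075 and -0.011 in ethanol and at 0.016, 0.055 and 0.124 in 4OHT. FF ethanol C did not shift steadily, with 0.013, 0.038, 0.033 and 0.024 in the classes between. Among the 4OHT libraries the distance from 1 exon to over 20 was smallest in FF 4OHT A and largest in FF 4OHT C, those with the lowest and the highest Rn45s share, and the part of that share was not tested. The median log2 response to 4OHT for 1 exon, 3 to 5 exons and over 20 exons was 0.00, -0.03 and -0.00 in WT cells (without FF ethanol C and WT 4OHT C). In Het cells it was 0.12, 0.05 and -0.08, lower with more exons. Among genes with a longest transcript of 3 to 5 kb, the Het medians were -0.02, -0.03 and -0.02, without that order. The FF medians for the same genes were 0.03, 0.07 and -0.17. No test was made of these medians, since genes are not replicates.

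**Figure D3:**
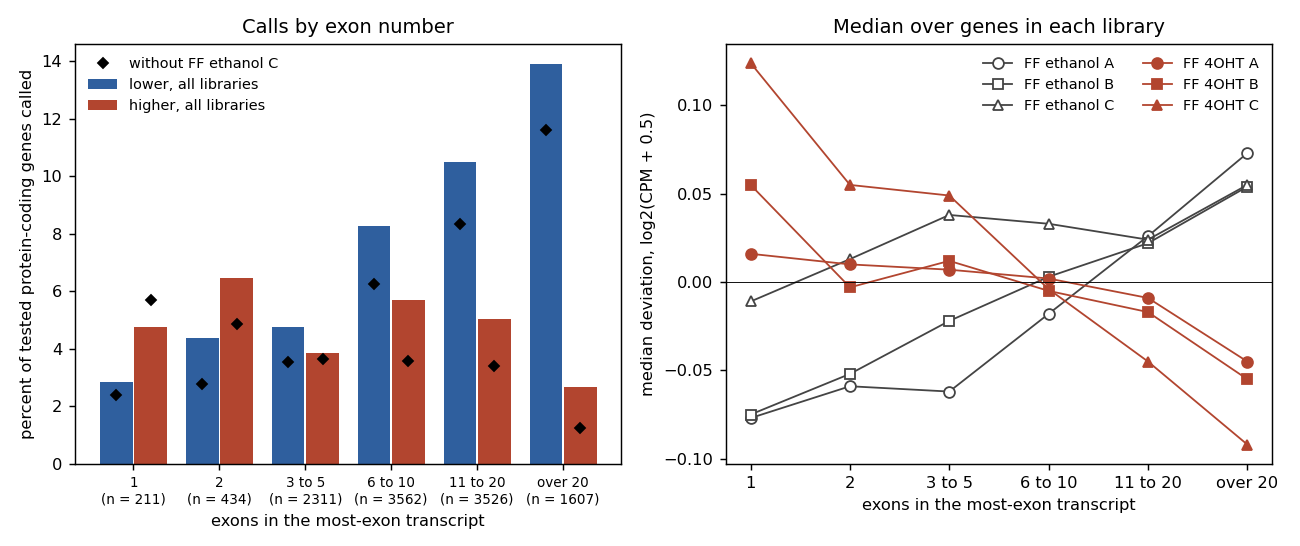
Left, percent of tested protein-coding genes called lower (blue) and higher (red) by exons in the most-exon transcript, with diamonds for the same without FF ethanol C; falls go from 2.84 to 13.9%. Right, median deviation of log2(CPM + 0.5) from each gene's mean over the 6 FF libraries, 1 line per library; for over 20 exons all 3 ethanol lines lie above 0 and all 3 4OHT lines below it.

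Of 70 tested snoRNA genes 26 rose and 0 fell, with a median log2 fold change of 1.41, and of 36 miRNA genes 7 rose and 0 fell, with a median of 0.60. Without FF ethanol C, 18 snoRNA genes and 4 miRNA genes rose. Over all tested genes 5.16% rose with all libraries and 3.59% without FF ethanol C. The deposited counts are per gene, so reads of intron-encoded small RNAs and of the host transcript cannot be told apart without the strand setting and counting rule. Of 371 long noncoding RNA genes 33 rose and 13 fell with all libraries (median 0.24), and 22 rose and 4 fell in both fits. By mean level, 4.12% of genes under 1 CPM rose and 1.72% fell, with a median log2 fold change of 0.31. From 1 to 10 CPM 8.57% rose and 5.7% fell (median 0.11), and from 10 to 100 CPM 4.75% rose and 10.2% fell (median -0.05). Among the 2456 genes between 100 CPM and 10 times that, 3.58% rose and 10.9% fell (median -0.09), and among the 93 above it 3.23% rose and 5.38% fell (median 0.07). By chromosome, between 4.03% (chromosome 12) and 11.8% (chromosome 10) of tested autosomal genes fell.

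Among the rises with the highest levels were genes of the lysosome, the acidic compartment in which macromolecules are degraded. Lamp1, a heavily glycosylated protein of the lysosomal membrane, stood at 831, 742 and 732 CPM in the ethanol libraries and 1053, 1079 and 1174 CPM in the 4OHT libraries. Every 4OHT library lay above every ethanol library, for a log2 fold change of 0.52 ± 0.09 (SE, edgeR adjusted p = 0.00211; 0.49 and 0.0115 without FF ethanol C). Psap, the precursor of the saposins that help degrade sphingolipids, stood at 744, 849 and 858 CPM in ethanol and 1245, 1526 and 1585 CPM in 4OHT (log2 0.83 ± 0.20). Ctsd, the aspartic protease cathepsin D, stood at 987, 789 and 690 CPM in ethanol and 1218, 1406 and 1711 CPM in 4OHT (log2 0.81 ± 0.19). For both genes the groups did not overlap, with edgeR adjusted p-values of 0.0118 for Psap and 0.0095 for Ctsd. The cysteine protease gene Ctsb (log2 0.74 ± 0.16) and Hexa, which encodes a subunit of beta-hexosaminidase (0.55 ± 0.11), also rose. Without FF 4OHT C the edgeR adjusted p was 0.0606 for Psap, 0.0631 for Ctsd and 0.0557 for Ctsb.

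The promoters of Ctsd and Lamp1 are shown because the E-box CACGTG is the core of the element known to bind the lysosomal regulator TFEB, and a script found it in both. The windows run from 250 bases before to 50 bases after the start site (RefSeq, GRCm38.p6), with the E-box in capitals. For Ctsd the window is chr7:142387778-142388077, minus strand, with 2 matches starting 245 and 98 bases before the start site. For Lamp1 it is chr8:13158911-13159210, plus strand, with 4 matches starting between 61 and 15 bases before the start site.
Ctsd: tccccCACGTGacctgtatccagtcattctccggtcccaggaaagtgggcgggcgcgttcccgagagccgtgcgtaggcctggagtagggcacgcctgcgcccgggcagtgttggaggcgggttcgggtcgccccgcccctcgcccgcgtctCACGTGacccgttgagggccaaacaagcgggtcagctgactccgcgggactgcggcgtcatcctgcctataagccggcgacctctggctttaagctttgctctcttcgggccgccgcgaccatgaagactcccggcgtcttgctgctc
Lamp1: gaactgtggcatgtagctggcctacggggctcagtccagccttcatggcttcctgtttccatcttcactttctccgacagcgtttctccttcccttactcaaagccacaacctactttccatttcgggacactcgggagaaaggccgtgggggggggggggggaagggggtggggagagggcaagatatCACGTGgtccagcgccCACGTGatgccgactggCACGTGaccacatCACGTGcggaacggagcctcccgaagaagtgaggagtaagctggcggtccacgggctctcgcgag
Of the 22862 promoters of genes with a single entry in the table, 7.12% hold CACGTG, which reads the same on both strands, and of the 7672 of tested genes 10.4% do. Hexa, Ppt1 and Atp6v1d, also lysosomal genes that rose, have no match in this window. A match is a description of the letters and not evidence of binding. A comparison of motif shares between called and uncalled genes is void, since only 52.3% of the rises and 62.1% of the falls called in both fits had a single promoter in the table.

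Of 37 genes of lysosomal hydrolases and membrane proteins, 9 rose and 0 fell with all libraries, and 5 rose in both fits. Counts in this list and those that follow stand beside 5.16% rises and 8.29% falls over all tested genes. In both fits these shares were 3% and 5.95%. The median log2 fold change was 0.26, against -0.02 over all tested genes, and 29 of the 37 lay above 0. Beyond those named, Ppt1, a thioesterase that removes palmitate from proteins, rose from 119 ± 18.02 to 197 ± 21.5 CPM (edgeR adjusted p = 0.00181). Of 17 genes for subunits of the V-ATPase, the proton pump that acidifies lysosomes, 6 rose and 0 fell, 5 of them in both fits, and 16 lay above 0. Atp6v1b2 stood at 181, 229 and 243 CPM in ethanol and 302, 326 and 368 CPM in 4OHT, without overlap (log2 0.61 ± 0.11, edgeR adjusted p = 0.00207; 0.70 and 0.00252 without FF ethanol C). Without FF 4OHT C, 4 of the 37 lysosomal genes and 2 of the 17 V-ATPase genes rose. Of 39 autophagy genes 6 rose and 1 fell with all libraries and 2 rose in both fits, among them Atg16l1, which takes part in attaching LC3 to membranes (log2 0.55 ± 0.12, edgeR adjusted p = 0.00783; 0.62 and 0.012 without FF ethanol C). The list had 1 rise without FF 4OHT C, FF ethanol A or FF ethanol B, and 2 without FF 4OHT A or B.

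Lyz2, the lysozyme of phagocytes, stood at 225, 277 and 186 CPM in ethanol and 978, 1195 and 1352 CPM in 4OHT. The lowest 4OHT library was over 3 times the highest ethanol library, and the log2 fold change was 2.36 ± 0.32 (SE, edgeR adjusted p = 0.000325; 2.23 and 0.00226 without FF ethanol C). Reads of its close relative Lyz1 may be shared with it. Cybb, the catalytic subunit of the phagocyte NADPH oxidase, stood at 43.6, 55.05 and 50.3 CPM in ethanol and 153, 215 and 210 CPM in 4OHT (log2 1.96 ± 0.41, edgeR adjusted p = 0.00539; 1.96 and 0.0205 without FF ethanol C). Of 7 tested genes of that oxidase 2 rose with all libraries, and 1, Cybb, in both fits. Cd80, a costimulatory ligand of antigen-presenting cells, stood at 3.14, 2.59 and 2.39 CPM in ethanol and 12.96, 11.2 and 13.02 CPM in 4OHT (log2 2.19 ± 0.24, edgeR adjusted p = 8.33e-05; 2.11 and 0.000632 without FF ethanol C). Of the other members of the MHC class II list, Cd74, the invariant chain, rose from 1.23 ± 0.819 to 7.32 ± 1.77 CPM with all libraries (edgeR adjusted p = 0.0155), and its adjusted p was 0.0668 without FF 4OHT C. In all, 2 of 11 members of that list rose and 0 fell. Elane, neutrophil elastase, stood lower in every 4OHT library, at 4488, 2989 and 4157 CPM in ethanol and 2239, 2172 and 2091 CPM in 4OHT, and was not called (log2 -0.84, edgeR adjusted p = 0.0514). Of 12 tested complement genes 3 rose with all libraries and 0 in both fits, while 5 lay higher at an unadjusted p under 0.05, and 4 were called by DESeq2 and 1 by limma voom.

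Of 21 receptors for chemokines and other chemoattractants 7 rose and 2 fell with all libraries, and 5 rose and 1 fell in both fits. Their median log2 fold change was 0.87. Ptafr, the receptor of platelet-activating factor, stood at 3.91, 3.41 and 4.55 CPM in ethanol and 12.5, 11.3 and 16.6 CPM in 4OHT (log2 1.77 ± 0.27, edgeR adjusted p = 0.000629; 1.88 and 0.00224 without FF ethanol C). Fpr2, a formyl peptide receptor, stood at 0.0816, 1.28 and 0.721 CPM in ethanol and 4.24, 8.999 and 7.16 CPM in 4OHT (log2 3.27 ± 0.69, edgeR adjusted p = 0.00557; 3.29 and 0.0213 without FF ethanol C). Gpr35, a G protein-coupled receptor, rose from 1.01 ± 0.0511 to 4.29 ± 2.18 CPM (edgeR adjusted p = 0.00346). Of 19 Fc receptors and related adaptors 6 rose and 0 fell, 4 of them in both fits. Pirb, an inhibitory receptor of myeloid and B cells, stood at 24.998, 28.7 and 24.8 CPM in ethanol and 55.5, 95.7 and 90.0 CPM in 4OHT (log2 1.62 ± 0.35, edgeR adjusted p = 0.00722; 1.58 and 0.0278 without FF ethanol C). Lilrb4 and Gp49a, also called, are near-identical neighbours whose reads may be split between them. Without FF 4OHT C, 4 chemoattractant receptors and 3 Fc receptor genes rose. The shared beta chain of the IL-3 receptor, Csf2rb, rose from 302 ± 46.4 to 492 ± 34.1 CPM (edgeR adjusted p = 0.00551), and its paralog Csf2rb2 from 53.5 ± 2.45 to 122 ± 16.4 CPM (edgeR adjusted p = 0.000204), with the reservation that the 2 genes are alike in sequence.

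Sgpl1, the lyase that ends sphingosine-1-phosphate signalling, stood at 67.2, 81.9 and 69.9 CPM in ethanol and 133, 159 and 180 CPM in 4OHT (log2 1.11 ± 0.13, edgeR adjusted p = 0.000144; 1.08 and 0.00101 without FF ethanol C). Slc38a7, a glutamine transporter of the lysosomal membrane, stood at 19.3, 19.8 and 18.3 CPM in ethanol and 42.6, 43.6 and 55.7 CPM in 4OHT (log2 1.31 ± 0.16, edgeR adjusted p = 0.000156; 1.27 and 0.00113 without FF ethanol C). Tti2, a partner of the Tel2 chaperone of PI3K-like kinases, stood at 17.9, 20.6 and 22.5 CPM in ethanol and 40.4, 40.5 and 41.1 CPM in 4OHT (log2 1.00 ± 0.13, edgeR adjusted p = 0.000317; 1.08 and 0.00101 without FF ethanol C). The vesicle-lumen peptidase Dpp7 (log2 1.34 ± 0.17), the G protein regulator Rgs2 (1.18 ± 0.16), Rabggtb, a subunit of the Rab prenylating enzyme (0.75 ± 0.10), and the Rab GTPase Rab40c (1.23 ± 0.18) rose with edgeR adjusted p-values of 0.000231 to 0.000533. Rabggtb hosts snoRNAs in its introns, and its reads may include theirs. These genes stayed called with each of the 6 libraries left out in turn. Eif4b, a cofactor of the translation helicase eIF4A, rose by a smaller step, from 658 ± 53.8 to 878 ± 23.3 CPM (edgeR adjusted p = 0.00883).

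Lars2, the mitochondrial leucyl-tRNA synthetase, was the rise with the highest level and one of the least regular. It stood at 1521, 2148 and 3109 CPM in FF ethanol A, B and C and at 3359, 6709 and 9690 CPM in FF 4OHT A, B and C. The groups abut and the 4OHT libraries differ by nearly 3-fold among themselves (log2 1.54 ± 0.47, edgeR adjusted p = 0.0399, and 0.14, 0.104, 0.089 and 0.187 without FF ethanol A, FF ethanol B, FF 4OHT B and FF 4OHT C). Rn45s followed the same order within 4OHT, at 5987, 18286 and 41159 CPM, and its part in the Lars2 value was not tested.

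**Figure D4:**
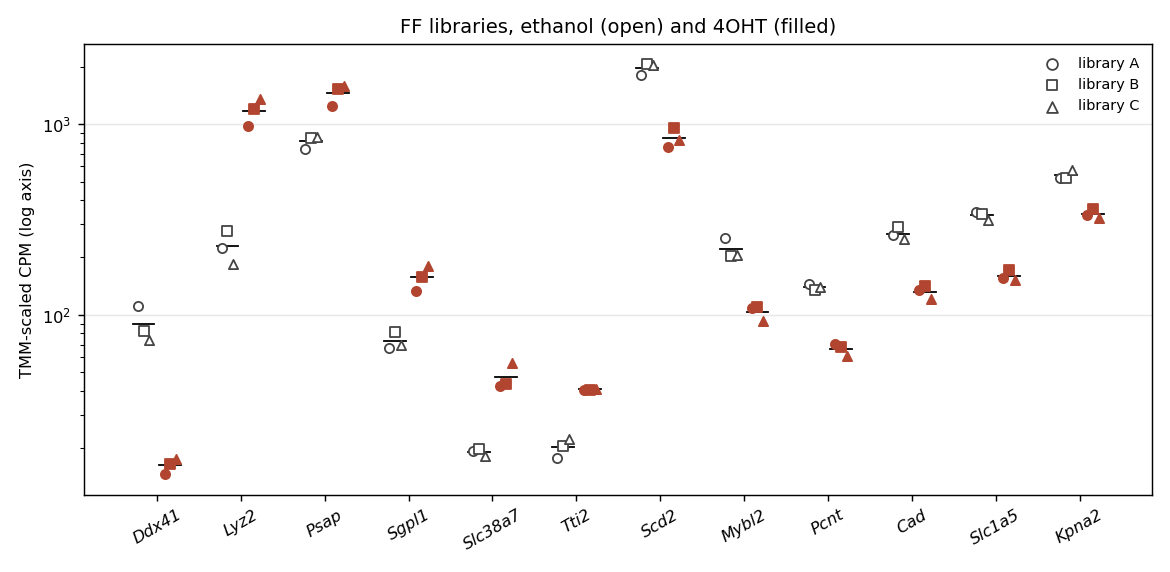
TMM-scaled CPM (log axis) of 12 named genes in the 6 FF libraries, ethanol open and 4OHT filled, with marker shapes for libraries A, B and C and bars at the group means. In each gene the 3 ethanol and 3 4OHT libraries form separate groups, from Ddx41 at the left (89.2 against 16.3 CPM on average) to Kpna2 at the right (540 against 338 CPM). Lack of overlap was part of the naming rule for most genes, so it is no added support.

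Mybl2, a transcription factor of the S and G2 phases, stood at 254, 204 and 206 CPM in ethanol and 109, 110 and 93.3 CPM in 4OHT (log2 -1.09 ± 0.10, edgeR adjusted p = 4.2e-05; -1.14 and 0.000228 without FF ethanol C). Kif20a, a kinesin needed in cytokinesis, stood at 185, 162 and 165 CPM in ethanol and 102, 100 and 84.9 CPM in 4OHT (log2 -0.84 ± 0.09, edgeR adjusted p = 8.33e-05; -0.86 and 0.000426 without FF ethanol C). Rfc5, a subunit of the clamp loader of DNA replication, stood at 103, 93.9 and 92.1 CPM in ethanol and 51.4, 51.5 and 47.8 CPM in 4OHT (log2 -0.94 ± 0.09, edgeR adjusted p = 4.97e-05; -0.97 and 0.000279 without FF ethanol C). Levels in 4OHT were close to 0.5 of those in ethanol for all 3 genes. Msto1, a mitochondrial distribution factor, fell from 42.6 ± 2.75 to 21.3 ± 0.751 CPM (edgeR adjusted p = 4.97e-05). All of these stayed called with each library left out in turn.

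Mki67, the proliferation marker Ki-67, stood at 1075, 900 and 919 CPM in ethanol and 618, 547 and 521 CPM in 4OHT. The groups did not overlap (log2 -0.78 ± 0.20, edgeR adjusted p = 0.0169; -0.81 and 0.0329 without FF ethanol C). Its adjusted p was 0.0628 without FF ethanol A, 0.0612 without FF 4OHT B and 0.095 without FF 4OHT C. Its promoter is shown because the motif TTTGAA, the cell cycle genes homology region (CHR) known from genes of the G2 and M phases, occurs in it on 2 occasions, starting 116 and 98 bases before the start site. The window is chr7:135716330-135716629, minus strand (RefSeq, GRCm38.p6), with the motif in capitals.
Mki67: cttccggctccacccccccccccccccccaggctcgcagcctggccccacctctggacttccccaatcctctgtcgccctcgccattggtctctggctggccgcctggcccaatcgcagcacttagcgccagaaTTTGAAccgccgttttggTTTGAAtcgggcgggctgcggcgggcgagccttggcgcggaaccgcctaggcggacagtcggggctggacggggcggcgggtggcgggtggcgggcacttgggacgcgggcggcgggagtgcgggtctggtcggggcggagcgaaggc
Of the 22862 promoters 18.5% hold TTTGAA on either strand, and of the 7672 of tested genes 11.8%. Among other cell division genes that fell, Oip5, Ncapd2, E2f8 and Tubb4b hold it. Mybl2, Rfc5, Haus5, Cep78, Pcnt, Mis18a, Tk1 and E2f7 do not, and Cybb, which rose, does. Here too a match describes the letters and is not evidence of binding.

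Of 32 tested genes of the kinetochore, the protein structure that joins chromosomes to the spindle, 16 fell and 0 rose with all libraries and 8 fell in both fits, and the median log2 fold change was -0.51. Every member lay below 0 with all libraries, whereas Mis12 and Nsl1, chosen for this after their values were seen, stood at 0.25 and 0.07 without FF ethanol C. Oip5, which helps load the centromeric histone, stood at 13.3, 18.9 and 20.6 CPM in ethanol and 9.27, 7.86 and 6.91 CPM in 4OHT (log2 -1.13 ± 0.17, edgeR adjusted p = 0.000682; -1.01 and 0.00398 without FF ethanol C). Ska1, of the complex that tracks microtubule ends, fell from 30.4 ± 1.46 to 14.7 ± 1.84 CPM, and Mis18a, another centromere loading factor, from 34.4 ± 3.34 to 21.1 ± 1.38 CPM. Their edgeR adjusted p-values were 0.000732 and 0.000768. Kinetochore falls numbered 4 without FF 4OHT C, and 9 with FF 4OHT A, FF 4OHT B, FF ethanol B or FF ethanol C left out in its place.

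Of 25 centriole and centrosome genes 10 fell and 0 rose, 8 of them in both fits, and 7 fell without FF 4OHT C. Pcnt, the scaffold pericentrin, stood at 145, 135 and 140 CPM in ethanol and 70.4, 68.1 and 60.7 CPM in 4OHT (log2 -1.08 ± 0.13, edgeR adjusted p = 0.000196; -1.08 and 0.000987 without FF ethanol C). Haus5, of the augmin complex that branches microtubules, stood at 65.5, 68.4 and 77.0 CPM in ethanol and 30.5, 34.1 and 27.6 CPM in 4OHT (log2 -1.19 ± 0.12, edgeR adjusted p = 6.88e-05; -1.12 and 0.000461 without FF ethanol C). Every 4OHT library was far below every ethanol library in both genes. The centriolar gene Cep78 fell from 24.8 ± 2.26 to 11.4 ± 0.556 CPM (edgeR adjusted p = 8.33e-05), and Tubgcp2, of the gamma-tubulin ring, from 66.9 ± 5.55 to 45.9 ± 1.55 CPM (edgeR adjusted p = 0.000732). Of 30 tubulin and microtubule genes 8 fell and 1 rose, 7 and 1 of them in both fits. The beta-tubulin Tubb4b went from 848 ± 113 to 505 ± 36.2 CPM (edgeR adjusted p = 0.00122). Without FF 4OHT A, B or C or FF ethanol A, 4 genes of that list fell. Of 23 cohesin and condensin genes 8 fell and 1 rose, 4 and 1 of them in both fits, with 3 falls without FF 4OHT C and 5 without FF ethanol B. The condensin subunit gene Ncapd2 fell from 383 ± 36.9 to 236 ± 13.9 CPM (edgeR adjusted p = 0.000533), whereas the cohesin loader gene Mau2 rose from 87.4 ± 9.07 to 132 ± 4.01 CPM (edgeR adjusted p = 0.00744).

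**Figure D5:**
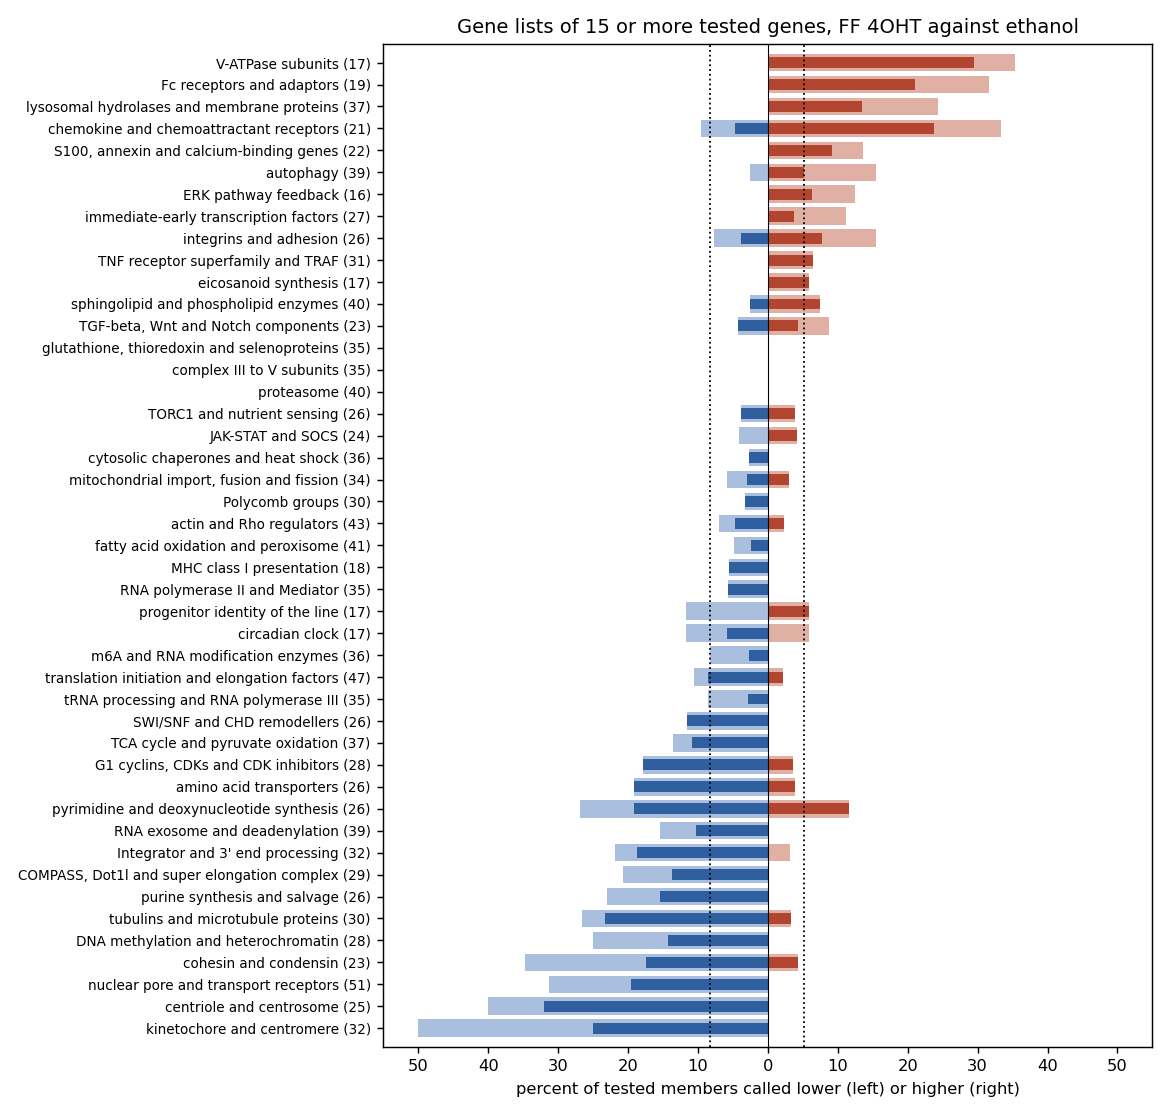
Percent of tested members called lower (left, blue) or higher (right, red) in each gene list with 15 or more tested genes, ordered by the difference; pale bars are all libraries, dark bars both fits, dotted lines the shares over all tested genes (8.29% lower, 5.16% higher), and numbers in brackets the tested members. Kinetochore, centriole and nuclear pore lists lie furthest to the left, and V-ATPase, Fc receptor and lysosomal lists furthest to the right.

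Of 28 genes of G1 cyclins, their kinases, kinase inhibitors and E2F factors, 5 fell and 1 rose in both fits. Tfdp1, the dimer partner of E2F factors, stood at 406, 410 and 421 CPM in ethanol and 290, 277 and 226 CPM in 4OHT (log2 -0.64 ± 0.11, edgeR adjusted p = 0.00188; -0.63 and 0.0076 without FF ethanol C). The repressive E2F genes E2f7 and E2f8 fell with edgeR adjusted p-values of 0.00539 and 0.00624. The member that rose was Cdkn1a, which encodes the CDK inhibitor p21 (log2 1.05, edgeR adjusted p = 0.0338). With FF 4OHT A, B or C or FF ethanol A or B left out, edgeR called 0 rises in this list.

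Of 51 tested nuclear pore and nuclear transport genes, 16 fell and 0 rose with all libraries and 10 fell in both fits, and 48 of the 51 lay below 0, with a median log2 fold change of -0.34 and a range of -0.70 to 0.22. Kpna2, an importin alpha, stood at 524, 520 and 577 CPM in ethanol and 334, 357 and 323 CPM in 4OHT (log2 -0.68 ± 0.09, edgeR adjusted p = 0.000256; -0.63 and 0.00169 without FF ethanol C). Nup133, of the Y-shaped scaffold of the pore, stood at 96.3, 99.2 and 92.4 CPM in ethanol and 63.6, 64.9 and 58.9 CPM in 4OHT (log2 -0.62 ± 0.09, edgeR adjusted p = 0.000442; -0.65 and 0.00168 without FF ethanol C). Nup85, of the same scaffold, fell from 143 ± 2.58 to 100.2 ± 7.29 CPM (edgeR adjusted p = 0.00205). The list had 4 falls without FF 4OHT C, 7 without FF 4OHT A or B, and 8 without FF ethanol B.

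Med25, a Mediator subunit, stood at 75.4, 63.2 and 54.1 CPM in ethanol and 28.6, 33.9 and 28.6 CPM in 4OHT (log2 -1.08 ± 0.15, edgeR adjusted p = 0.00038; -1.19 and 0.00062 without FF ethanol C). It and Polr2a, the largest subunit of RNA polymerase II, were the 2 falls among 35 polymerase and Mediator genes. That share is below the 8.29% of falls over all tested genes. Polr2a went from 503 ± 131 to 297 ± 8.88 CPM (edgeR adjusted p = 0.0136, and 0.0699, 0.0509 and 0.0678 without FF ethanol A, FF 4OHT B and FF 4OHT C). Of 32 genes of the Integrator and of 3′ end processing 7 fell and 1 rose, and 6 fell in both fits. Without FF 4OHT B, FF 4OHT C or FF ethanol A 3 of that list fell. Cpsf1, the largest subunit of the cleavage and polyadenylation factor, stood at 175, 158 and 158 CPM in ethanol and 101, 96.9 and 94.6 CPM in 4OHT (log2 -0.75 ± 0.09, edgeR adjusted p = 0.000118; -0.77 and 0.000584 without FF ethanol C). Of 39 exosome and deadenylation genes 6 fell and 0 rose, 4 of them in both fits. With all libraries 7 lay lower at an unadjusted p under 0.05, and 7 were called lower by DESeq2 and 5 by limma voom, but edgeR called 0 without FF 4OHT C and 0 without FF ethanol A. Ftsj3, an rRNA processing methyltransferase, fell from 195 ± 16.3 to 117 ± 8.26 CPM (edgeR adjusted p = 0.00142).

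Of the chromatin lists, DNA methylation and heterochromatin genes had 7 falls and 0 rises among 28, 4 of them in both fits. Dnmt1, the maintenance DNA methyltransferase, stood at 665, 561 and 612 CPM in ethanol and 428, 434 and 390 CPM in 4OHT (log2 -0.55 ± 0.11, edgeR adjusted p = 0.00312; -0.55 and 0.0106 without FF ethanol C). Suv39h2, a histone H3 lysine methyltransferase, fell from 24.1 ± 2.50 to 14.2 ± 1.26 CPM (edgeR adjusted p = 0.00107). Of 29 genes of COMPASS, Dot1l and the super elongation complex, partners of MLL fusions, 6 fell and 0 rose, 4 of them in both fits. Psip1, the chromatin tether LEDGF, stood at 86.9, 81.1 and 80.8 CPM in ethanol and 43.4, 38.3 and 29.6 CPM in 4OHT (log2 -1.16 ± 0.18, edgeR adjusted p = 0.000742; -1.18 and 0.00276 without FF ethanol C). Mllt1 (ENL), also known as a fusion partner of MLL, fell from 75.4 ± 7.88 to 51.7 ± 2.54 CPM (edgeR adjusted p = 0.00266). With FF 4OHT C left out, 2 of the DNA methylation and heterochromatin genes and 2 of the COMPASS list fell. Every other single 4OHT or ethanol library left out gave 4 to 6 and 2 to 4 falls. Of 30 Polycomb genes 1 fell and 0 rose, a share of falls below that over all genes.

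In pyrimidine and deoxynucleotide synthesis 7 of 26 genes fell and 3 rose, 5 and 3 of them in both fits. Cad, which carries out the opening steps of pyrimidine synthesis, stood at 263, 289 and 250 CPM in ethanol and 136, 141 and 121 CPM in 4OHT (log2 -1.01 ± 0.15, edgeR adjusted p = 0.000668; -1.06 and 0.00193 without FF ethanol C). Dctd, the dCMP deaminase, stood at 22.0, 25.8 and 24.2 CPM in ethanol and 10.7, 12.9 and 10.2 CPM in 4OHT (log2 -1.09 ± 0.13, edgeR adjusted p = 0.000172; -1.08 and 0.000961 without FF ethanol C). Tk1, the thymidine kinase of S phase, fell from 91.2 ± 6.07 to 52.7 ± 2.65 CPM (edgeR adjusted p = 0.000663). The 3 that rose in both fits were Nt5e, the surface nucleotidase CD73 (log2 1.76, edgeR adjusted p = 0.000679), the uridine kinase gene Uck1 (0.71, adjusted p = 0.0211) and Samhd1, a deoxynucleotide hydrolase (0.55, adjusted p = 0.0096). In this list 4 genes fell and 1 rose without FF 4OHT C.

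In purine synthesis 6 of 26 genes fell and 0 rose, 4 of them in both fits, and 3 fell without FF 4OHT A, B or C or FF ethanol A. Impdh1, the entry enzyme of guanine nucleotide synthesis, fell from 36.4 ± 1.69 to 19.7 ± 2.86 CPM (edgeR adjusted p = 0.000682), and Gart, which carries 3 steps of the de novo pathway, from 309 ± 16.2 to 214 ± 13.6 CPM (edgeR adjusted p = 0.00213). Of 26 amino acid transporters 5 fell and 1 rose in both fits. Slc1a5 (ASCT2), a glutamine carrier of the cell surface, stood at 346, 338 and 315 CPM in ethanol and 156, 171 and 153 CPM in 4OHT (log2 -1.06 ± 0.13, edgeR adjusted p = 0.000147; -1.10 and 0.000604 without FF ethanol C). Slc1a4 (ASCT1) stood at 13.4, 19.2 and 24.7 CPM in ethanol and 7.41, 6.98 and 6.70 CPM in 4OHT (log2 -1.44 ± 0.18, edgeR adjusted p = 0.000218; -1.21 and 0.000889 without FF ethanol C). The member that rose was the lysosomal Slc38a7 described above. With FF 4OHT C left out 3 transporters fell. Aldh18a1, which makes the proline precursor pyrroline-5-carboxylate, stood at 220, 209 and 223 CPM in ethanol and 108, 116 and 112 CPM in 4OHT (log2 -0.96 ± 0.10, edgeR adjusted p = 6.03e-05; -0.94 and 0.000426 without FF ethanol C).

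Of 37 genes of the TCA cycle and pyruvate oxidation 5 fell and 0 rose, 4 of them in both fits, and 3 fell without FF 4OHT C. Falls over all tested genes were 8.29%, or 5.95% in both fits. Idh3b, of the NAD-dependent isocitrate dehydrogenase, stood at 126, 116 and 101 CPM in ethanol and 67.0, 73.4 and 65.3 CPM in 4OHT (log2 -0.74 ± 0.11, edgeR adjusted p = 0.000533; -0.82 and 0.000961 without FF ethanol C). Idh2, the NADP-dependent enzyme, fell from 187 ± 7.95 to 114 ± 9.39 CPM (edgeR adjusted p = 0.000541). Pcx, pyruvate carboxylase, fell from 14.3 ± 1.65 to 7.76 ± 0.368 CPM (edgeR adjusted p = 0.000629). Of 35 nuclear genes for complexes III to V, 0 were called by edgeR, 0 had an unadjusted p under 0.05, and 0 were called by DESeq2 or limma voom; their log2 fold changes ran from -0.32 to 0.51. Acadvl, which begins the oxidation of long fatty acids, fell from 52.4 ± 2.20 to 28.7 ± 1.65 CPM (edgeR adjusted p = 0.000383).

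The most abundant falls were of modest size. Scd2, a fatty acid desaturase, was the exception, at 1816, 2054 and 2051 CPM in ethanol and 761, 954 and 826 CPM in 4OHT (log2 -1.22 ± 0.19, edgeR adjusted p = 0.000787; -1.19 and 0.00364 without FF ethanol C). Tubb5, the ER chaperone gene Hsp90b1, the RNA-binding protein gene Hnrnpf, the translation scaffold gene Eif4g1, the fatty acid synthase gene Fasn and the chromatin protein gene Hmgb1 fell by 0.37 to 0.73 on the log2 scale, all from ethanol means of 1031 CPM (Hmgb1) or more. Their edgeR adjusted p-values lay between 0.0184 and 0.0459. Each of these 6 calls was lost on leaving out at least 3 of the 6 libraries in turn, with adjusted p-values up to 0.174 without FF 4OHT C.

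Some abundant machineries showed no call, which does not show that modest changes were absent. Of 40 proteasome genes 0 were called by edgeR, 4 had an unadjusted p under 0.05, and 1 was called by DESeq2 and 0 by limma voom, with log2 fold changes of -0.45 to 0.33. Of 35 genes of glutathione, thioredoxin and selenoproteins 0 were called by edgeR, 2 had an unadjusted p under 0.05, 1 was called by DESeq2 and 0 by limma voom. Of 47 translation factor genes 5 fell and 1 rose, 4 and 1 of them in both fits, and of 36 cytosolic chaperone genes 1 fell and 0 rose. Over all tested genes 8.29% fell.

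Cd3e and the globin gene Hbb-bs had 0 counts in all 6 libraries, and the eosinophil gene Epx did not exceed 0.0816 CPM. Of 18 T, B and NK cell markers 5 could be tested, and their summed level was 18.02 to 23.4 CPM in ethanol and 11.8 to 14.5 CPM in 4OHT. Of 12 dendritic cell markers 7 could be tested, with summed levels of 107 to 127 CPM in ethanol and 134 to 145 CPM in 4OHT and no call by edgeR, DESeq2 or limma voom (1 at an unadjusted p under 0.05). The corresponding ranges for 16 mast cell, basophil and eosinophil markers, 10 of them tested, were 28.4 to 35.2 and 19.2 to 36.7 CPM. For 12 megakaryocyte and platelet markers, 6 of them tested, they were 181 to 236 and 146 to 205 CPM. Of the 5, 7, 10 and 6 tested members of these lists, 3 in all were called in both fits. The share over all tested genes was 8.95%, and nothing is read from so small a count. The NK cell granule gene Nkg7 fell from 9.49 ± 1.62 to 4.86 ± 1.02 CPM (edgeR adjusted p = 0.0294, and 0.142 without FF 4OHT C). Siglec5 fell from 4.43 ± 0.835 to 1.999 ± 0.466 CPM (edgeR adjusted p = 0.00735, and 0.0522 without FF 4OHT C). Vwf, the von Willebrand factor, rose from 1.85 ± 0.662 to 6.72 ± 2.13 CPM (edgeR adjusted p = 0.016, and 0.0787 without FF 4OHT C). The calls of Nkg7 and Vwf were also lost without FF ethanol A, FF ethanol B or FF 4OHT B. The part of these markers in the myeloid rises was not tested.

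Few genes went from near silence to expression or back. Among the genes eligible for naming, 1 lay under 1 CPM in ethanol and at 5 CPM or more in 4OHT, and 1 the reverse (FF ethanol C was allowed to miss the limit). Fam212b stood at 0.530, 0.426 and 0.342 CPM in ethanol and 7.77, 5.82 and 7.20 CPM in 4OHT (log2 3.99 ± 0.55, edgeR adjusted p = 0.00038; 3.85 and 0.00261 without FF ethanol C). Bpifc, of the lipid-binding BPI family, stood at 5.71, 6.08 and 3.72 CPM in ethanol and 0.396, 0.162 and 0.250 CPM in 4OHT (log2 -4.26 ± 1.23, edgeR adjusted p = 0.031; -4.45 and 0.0432 without FF ethanol C). Without FF ethanol C and WT 4OHT C, Bpifc also stood lower with 4OHT in WT (log2 -3.09) and Het cells (log2 -3.92), and was called in neither. With all libraries its WT value was 0.71. Its FF call was lost without any single library other than FF ethanol C, with edgeR adjusted p-values up to 0.119.

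The called genes were also followed in the other lines. These genes were chosen by their FF response, so a larger median in FF and more differences from WT than among all genes are built in and nothing is read from them. Over the 386 rises called in both FF fits, the median log2 response to 4OHT was 1.09 in FF, 0.07 in WT and 0.11 in Het. Over the 765 falls it was -0.70 in FF, -0.02 in WT and 0.01 in Het. The WT values leave out the library labelled WT 4OHT C. In a fit without FF ethanol C and WT 4OHT C, the difference between the FF and WT responses passed an edgeR adjusted p of 0.05 for 20 of the 386 rises and 93 of the 765 falls. The share over all tested genes was 0.925%. A difference that missed the threshold does not show that the lines responded alike.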

How the data were processed

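Total RNA of 18 libraries, 3 for each of 6 combinations of genotype and treatment, was sequenced. The deposited table holds raw counts per gene for 24062 genes, not normalized by the authors. The tools listed in the submitters' processing notes include HISAT2 2.0.5 and featureCounts 1.5.2 (Subread), with mm10 as genome build; no source used here gives the annotation or the strand setting. From these counts, edgeR 4.0.16 (R 4.3.3) kept 12859 genes (filterByExpr, minimum count 10), scaled by TMM and fitted 1 mean per group to all 18 libraries. The robust quasi-likelihood F test of FF 4OHT against FF ethanol was adjusted by Benjamini-Hochberg over all tested genes (threshold 0.05). The procedure was tried on simulated data with known changes in 200 of the 12859 genes. With so few changed genes the adjusted threshold was stricter than in the data. There, 70 rises and 250 falls under 0.5 in absolute log2 size were called. In the simulated setting the procedure recovered 0 of 67 changes of log2 size 0.5, 46 of 67 of size 1 and 61 of 66 of size 2, with 4 false calls. A missing call therefore does not show that a modest change was absent. The fit was repeated without FF ethanol C on the same genes. Standard errors are those of the log2 fold change, and ± after a mean is the SD over 3 libraries.

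Named genes were called in both fits with the same sign, did not overlap between groups and were characterised. They were the 8 rises and 8 falls with the highest mean CPM, the 8 of each with the smallest p at 0.5 to 1.5 in absolute log2 size, genes under 1 CPM in one group and at least 5 CPM in the other, and up to 3 members of each gene list by adjusted p (these could overlap between groups, and a list with no such member gave its most abundant one). Cdkn1a, Nt5e, Uck1, Samhd1, Myb and Mpo fall outside this rule and were chosen after their values were seen. Members, lists and genes were chosen with earlier results of these data known. Gene classes and exons came from GENCODE M21 (GRCm38), in which 12232 tested genes (95.1%) matched a single gene. Promoters came from RefSeq (GRCm38.p6). Alternatives were other scalings and filters, DESeq2 1.42.0, limma 3.58.1 (voom), the FF libraries alone, a replicate block and each library left out. The library letters were not used to pair samples. A few of the genes named by this rule or listed as markers are not reported here.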

Additional observations from a re-analysis of the deposited data

Results flagged for a closer look

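For 27 of the 129 named genes called in both fits, the response to 4OHT differed between FF and WT cells by a test of the difference itself (edgeR interaction, adjusted p under 0.05), both with all libraries and without FF ethanol C and WT 4OHT C. In the fit without those libraries 0.925% of all tested genes passed. A higher share among genes named for their FF response is built in. The differences of log2 responses, FF minus WT, are given from that fit. For the targeted gene it was -2.54 (Ddx41, adjusted p = 0.00025).

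Of these genes 7 were higher in FF. The difference was 1.82 for Cd80, 1.65 for Ptafr, 1.43 for Rab40c, 1.33 for Dpp7, 1.24 for Slc38a7, 1.11 for Tti2 and 0.74 for Rabggtb. Which genes could pass was limited by the choice of genes called in FF.

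The other 20, Ddx41 included, were lower. Among genes of cell division and DNA replication the difference was -1.21 for Haus5, -1.16 for Mybl2, -1.14 for Cep78, -1.03 for Pcnt, -0.98 for Rfc5 and -0.83 for Kif20a. Among genes of RNA synthesis, 3′ end formation and the nuclear pore it was -1.29 for Med25, -0.82 for Cpsf1 and -0.74 for Nup133. Among metabolic enzymes and amino acid carriers it was -1.09 for Dctd, -1.08 for Slc1a5, -1.07 for Slc1a4, -0.94 for Acadvl, -0.88 for Aldh18a1, -0.87 for Idh3b and -0.77 for Idh2. Outside these groups it was -1.08 for Msto1 and -0.76 for Tap2. The genes that did not pass this test are not shown to respond alike in both lines, and causes were not tested.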

How the results depend on the processing

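No direction turned under any alternative, for the counts or the named genes. For the named genes this was nearly fixed by their choice, with the same sign in both fits and mostly no overlap between groups. Leaving out 1 library gave 702 to 1293 calls in all, 247 to 480 rises and 455 to 854 falls, each lowest without FF 4OHT C. Of the calls of all libraries, 37.1% of the rises and 42.6% of the falls were also made without FF 4OHT C. Of the calls made without FF 4OHT C, 99.6% of the rises and 99.8% of the falls were among the calls of all libraries. The latter shares are nearly built in, since both fits use the remaining libraries. Alternatives chosen after seeing the data gave 439 calls (113 rises, 326 falls) without FF ethanol C and FF 4OHT C, and 2384 calls (1118 rises, 1266 falls) from the FF libraries alone without FF ethanol C. DESeq2 called 993 rises and 1282 falls, limma voom 663 and 891. Of all calls, 25.7 to 46.9% were rises. Ddx41 kept its call, at -2.26 to -2.64. With a replicate block within each genotype the count was 2763 (1254 rises), and with a replicate block in the FF libraries alone 1693. Deviations of same-lettered samples correlated at 0.167 (A), 0.182 (B) and 0.067 (C), which was taken as sharing a letter only. Of 128 named genes called, apart from Ddx41, 82 were called under each of the alternatives other than those chosen after seeing the data, and 43 lost the call without FF 4OHT C. With the alternatives chosen after seeing the data included, 59 were called under each. Without FF ethanol C and FF 4OHT C, 68 lost the call. Genes with over 20 exons had a higher share of falls than those with 3 to 5 under every setting. Libraries of 24730213 to 30879935 counts limit the precision for genes near 1 CPM, and the causes of these shifts were not tested.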
